A study of Drosophila melanogaster with 2 samples.

Results

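CG8478 bound the genome of Drosophila embryos mostly at promoters, and the peaks described here are the minority whose summits lay more than 500 bp from every annotated transcription start site. Each peak of the conservative list, the list that repeated between the replicates, was placed by its summit, and those within 500 bp of a start site of any gene type (promoter peaks, 2577) were set aside. This left 327 of 2904 peaks, or 11.3% (95% Wilson interval 10.2 to 12.5). The data come from chromatin immunoprecipitation with sequencing (ChIP-seq) with an antibody against GFP, in whole embryos collected 0 to 24 h after laying. The flies, strain CG8478-GFP, carried CG8478 fused to eGFP, and the 2 biological replicates form a single group. An embryo holds many cell types, so a site bound in few cells and one bound weakly in many cannot be told apart. The files used give no read counts, so the sequencing depth cannot be stated, and intervals reflect only the counting of peaks or windows.

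In flies, sites away from start sites include enhancers, which often lie in introns or between genes, and insulators, which separate regulatory domains. Promoters of genes used in most cells often hold the DNA replication-related element (DRE, TATCGATA), which is bound by the factor Dref and whose CGATA letters are also bound by the boundary protein BEAF-32. Of the 15 strongest peaks away from start sites, 5 held the DRE core ATCGAT and 7 a different word, CGTGACACG. Over all 327, the core was in 23.9% of windows and the word in 5.2%.

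The word CGTGACACG was picked after its values were seen, so it is described without a test. It came from words chosen for being at least 5 times as frequent at summits as on the flanks. Its low flank counts therefore follow from the choice. It occurred on either strand within 100 bp of 17 of the 327 summits (5.2%), in 0 windows centred 1000 bp to the left or to the right, and in 23 of 2577 promoter windows (0.893%). Of the 15 peaks with the highest deposited signal, 6 lay on the X chromosome, among them 5 of the 7 that hold the word. X held 7 of all 17 peaks with the word, and 78 of its 394 copies on the main arms. The copies nearest to the summit are printed below for 8 peaks, 5′ to 3′ on the strand that reads the word, with the word in capitals; they show the word in its surroundings. Letters come from the RefSeq Release 6 genome (dm6).
CG16989, 3′ UTR, chrX:796533-796561, plus strand: cttgctcattCGTGACACGaacatcaaga
CG5273, intergenic, chrX:758968-758996, plus strand: cgtgctaattCGTGACACGaacatcaaga
CG15468, intergenic, chrX:4956109-4956137, plus strand: gtgcaaagctCGTGACACGaccggcgaaa
inc, intergenic, chrX:1517708-1517736, plus strand: gtgcctaattCGTGACACGtacaaaaaat
CG9166, 3′ UTR, chr3L:1352147-1352175, minus strand: ttattttggcCGTGACACGagaataacaa
CG3149, intergenic, chrX:5696049-5696077, plus strand: gaggggagcgCGTGACACGgcccaaggat
Sfp79B, intergenic, chr3L:22078295-22078323, minus strand: gggatgaccaCGTGACACGcacgtggtaa
dos, 5′ UTR, chr3L:2590672-2590700, plus strand: ctcaggagttCGTGACACGacactctgta

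The first pair are near copies of one another. In the 81 bp centred on the word, the CG16989 and CG5273 sites shared 71 bases (87.7%), and the next most alike pair, CG15468 and inc, shared 46 (56.8%). The word lay close to the summit: the median distance was 14.5 bp over its 18 copies within 100 bp of a summit, and of 21 copies within 500 bp, 17 were within 50 bp. Of the 17 peaks that hold it, 12 were matched by peaks in the own lists of both replicates, against 22.0% of all 327. The core of Ohler motif 7 (CATCNCTA, a core promoter motif) was in 9 of the 17 and the DRE core in 1. Over all 327 these shares were 9.48% and 23.9%. The near copies at CG16989 and CG5273 are both among the 9. The 17 peaks with the word had a median signal of 145 (15.2 to 491), against 69.2 (2.19 to 613) for the 310 without it. Promoter peaks with the word were also higher, with a median of 286 (n = 23) against 142 for all promoter peaks. The main arms hold 394 copies of the word, and 48 of them (12.2%, 9.31 to 15.8) lay in a conservative peak, 19 in one away from start sites. For the full DRE this was 969 of 4157 copies (23.3%, 22.0 to 24.6).

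**Figure D1:**
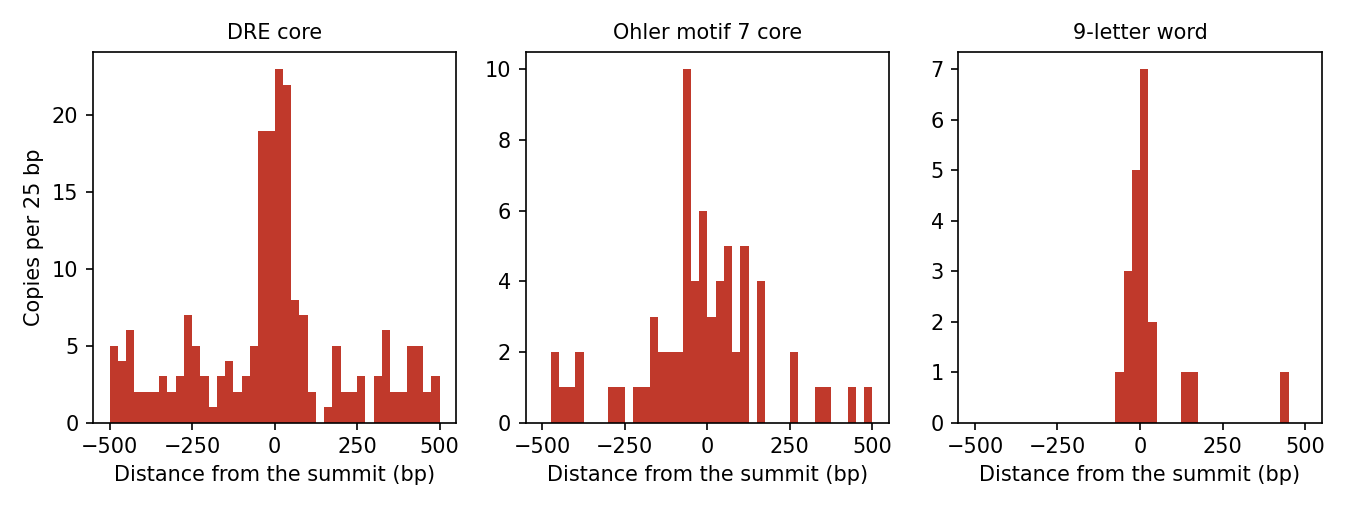
Copies of the DRE core, of the Ohler motif 7 core and of the word CGTGACACG per 25 bp, by distance from the summit in bp, at peaks away from start sites. Of the 21 copies of the word within 500 bp, 17 lay within 50 bp of a summit, and of 203 copies of the DRE core, 84.

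The DRE core, held by 5 of the 15 strongest peaks, was in 23.9% of all 327 windows and in 55.2% of promoter windows. At 36 summits (11.0%) the full element lay in the window, against 6 windows on each flank (1.83%) and 0.568% of all windows of that length on the main arms. These copies are printed as examples from intergenic and intronic peaks with signals of 183 to 324, with the full element in capitals.
mRpS5, intergenic, chr3L:24536168-24536196, minus strand: gtgacactaaTATCGATAgaattaattgt
CG10651, intergenic, chr2L:20120550-20120578, plus strand: tgcaggaaacTATCGATAggagcagagtg
Tudor-SN, intron, chr3L:262918-262946, minus strand: atattacataTATCGATAgtgtgtttggt
SrpRbeta, intergenic, chr3L:8718789-8718817, minus strand: gttcattgacTATCGATAgcacagatatg
Stt3A, intron, chrX:21053311-21053339, plus strand: tgtatcaagcTATCGATAttctagcaggg
Sumo, intergenic, chr2L:6968275-6968303, minus strand: ataggcgacaTATCGATAtaattgactgc

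The highest peak away from a start site lay in an intron of org-1, which encodes a T-box factor, with a deposited signal of 613 and input signals of 467 and 144. The input signals are those of the 2 peaks, one from each input, that were matched between replicates. Input 1 equalled the signal in replicate 1's own list, within 0.01, at 115 of the 117 peaks that overlap that list, and input 2 that of replicate 2 at 119 of 120. The org-1 peak was the only one of the 15 highest whose inputs differed by more than 2 times. Its sequence repeats a short word: the 8-letter word GTTAAAGT or its complement occurs 7 times in its 344 bp. The window around its summit was not soft-masked as repeat. The summit reads as follows on the plus strand, printed in lower case.
org-1, intron, chrX:8452346-8452374: ttgtggttaaagtgctggttaaagtggtg

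Below org-1 came a 3′ UTR peak of CG16989 with a signal of 491 and inputs of 279 and 209. The intergenic peak 616 bp upstream of CG5273 had 468, with inputs of 274 and 194. An intron of zf30C, which encodes a zinc finger protein, had 411 (chr2L:9758956-9759255), with inputs of 200.6 and 215. These 3 had inputs within 1.5 times of each other. The peak nearest to inc, which encodes a Cul3 adaptor needed for normal sleep, lay 4642 bp downstream of its start and reached 388. Asator, a tau-tubulin kinase gene on chromosome 4, had an intronic peak of 356 (chr4:486548-486774). The 3′ UTR peak nearest to Fem-1 lies in exu, whose product localises bicoid mRNA, and reached 347. Of the 15 highest, 8 were intergenic, 4 intronic and 3 in 3′ UTRs, and all 15 overlapped a peak of both replicates. The highest, org-1, nevertheless ranked 86 in the whole list.

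Replicate support was much lower away from start sites than at promoters. A peak of both replicates' own lists was overlapped by 72 of 327 peaks (22.0%, 17.9 to 26.8) and by 1776 of 2577 promoter peaks (68.9%, 67.1 to 70.7), where the whole list has 63.6%. The odds ratio was 0.127 (0.0954 to 0.169, Fisher's exact test, Benjamini-Hochberg adjusted over 6 properties, adjusted p = 4.21e-59). No overlap with either list was seen for 162 peaks (49.5%), against 352 promoter peaks (13.7%). The deposited −log10 q-value reached 1.3, a q of 0.05, at 174 peaks (53.2%) and 2130 promoter peaks (82.7%). These tests count peaks of 1 list, which share 2 libraries, so their p-values measure differences between peaks and not spread between embryos.

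Signal moved with this difference. The median signal was 69.9 (quartiles 57.3 and 91.1) away from start sites and 142 (82.3 and 254) at promoters, and 43 peaks (13.1%) exceeded the list median against 54.7% of promoter peaks (odds ratio 0.126, exact test, adjusted p = 4.12e-49). In the upper 50% of the list by signal, which holds 43 of the peaks, neither replicate support nor signal passed (exact tests, adjusted p = 0.0659 for each). Of the 82 highest by signal (91.2 to 613), 61 overlapped both lists, of the next 82 (69.9 to 91.0) 8 did, and of the 82 after those 0 did. Among peaks with a signal of 100 or less, a limit chosen after seeing the data, 18 of 262 (6.87%) and 189 of 865 promoter peaks (21.8%) overlapped both. There the difference in replicate support still passed (log2 odds ratio -1.89, exact test, adjusted p = 3.37e-08), while that in signal did not (exact test, adjusted p = 0.0934). Narrow peaks, under the common width of 404 bp, made up 34 of 327 (10.4%) against 42.5% of promoter peaks (exact test, adjusted p = 1.49e-33), but with a signal of 100 or less their difference no longer passed (adjusted p = 0.689).

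**Figure D2:**
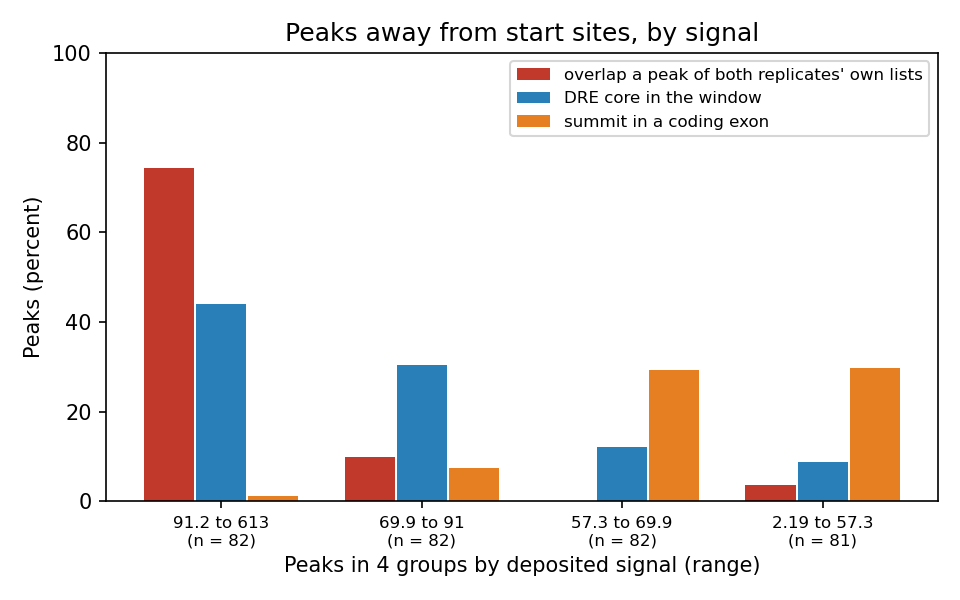
Percent of the peaks, in 4 groups by deposited signal, that overlap a peak of both replicates' own lists, hold the DRE core within 100 bp of the summit, or have their summit in a coding exon. In the highest group 61 of 82 peaks overlapped both lists and 1 lay in a coding exon; in the lowest, 3 of 81 and 24.

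The comparison of how equal the input signals are depended on its settings. They differed by more than 2 times at 27 peaks (8.26%) and at 223 promoter peaks (8.65%), an odds ratio of 0.95 (0.601 to 1.45, exact test, adjusted p = 0.917), an interval that does not show that the groups are alike. With protein-coding start sites only, unequal inputs were more frequent away from start sites (log2 odds ratio 0.98, exact test, adjusted p = 2.02e-05), and at signals of 100 or less they were less frequent (-0.84, adjusted p = 0.046). The log2 ratio of input 1 to input 2 was 0.20 ± 0.55 (SD, n = 327 peaks) and 0.18 ± 0.56 at promoters. Input 1 was the higher at 207 of the 327 peaks (63.3%), much as at promoters (1641 of 2577, 63.7%). It was the higher at 24 of the 27 unequal peaks away from start sites, for which no promoter count is given. Among the 6 summits in annotated transposable elements, input 1 exceeded input 2 by more than 2 times at 3, all in INE-1 elements: near ArgRS (153 and 33.0), in Dscam1 (148 and 26.6) and in lab (78.8 and 30.8). At the other 3, near DIP1, CG41099 and CG11360, input 2 was the higher. The CG11360 summit also lay in an INE-1 element, with nearly equal inputs of 29.7 and 30.4.

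**Figure D3:**
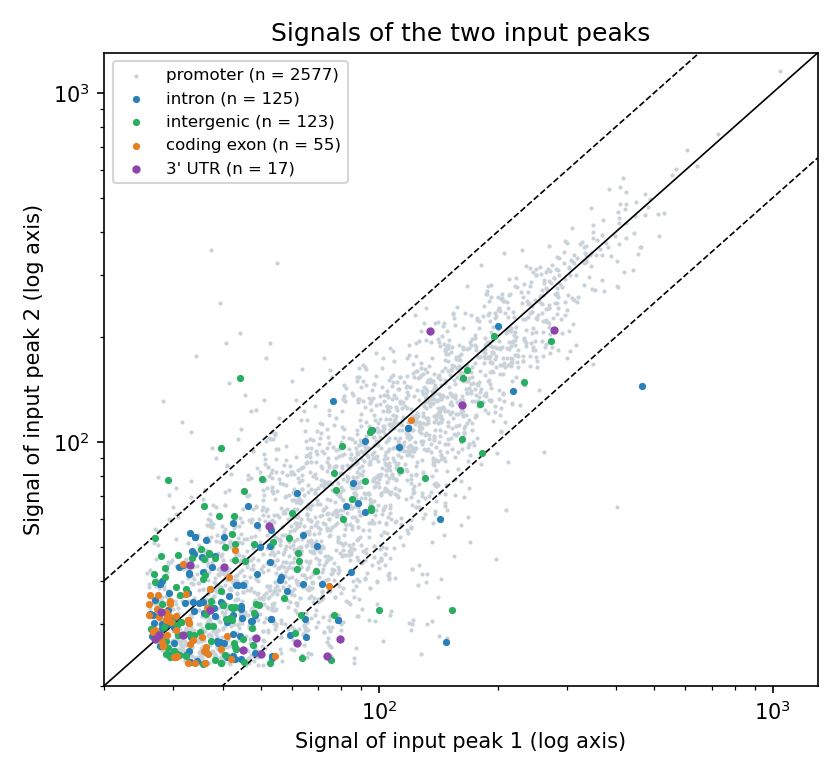
Signal of input peak 1 (x, log axis) against that of input peak 2 (y, log axis) for conservative peaks, coloured by annotation class; solid line equality, dashed lines a factor of 2. Coding exon peaks lie in the low corner, with medians of 30.4 and 28.9, and the org-1 intron is the point at 467 and 144.

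By annotation, 125 summits lay in introns (38.2%, 33.1 to 43.6), 123 between genes (37.6%), 55 in coding exons (16.8%), 17 in 3′ UTRs (5.2%), 4 in 5′ UTRs and 3 in non-coding exons. Of the 4 classes tested, intergenic peaks had the most replicate support: 39 of 123 (31.7%) overlapped both lists, against 33 of 204 other peaks (16.2%; odds ratio 2.41, 1.36 to 4.24, Fisher's exact test adjusted over 4 classes, adjusted p = 0.0029). Coding exon peaks had the least of the 4, with 3 of 55 (5.45%) against 25.4% of the others (odds ratio 0.17, 0.033 to 0.553, exact test, adjusted p = 0.00229). With a start site limit of 1000 bp the coding exon difference no longer passed (exact test, adjusted p = 0.162). Introns (24 of 125) and 3′ UTRs (4 of 17) did not pass.

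Further values of the 55 coding exon peaks are given without a test. Their median signal was 59.3 (4.06 to 115), below that of introns (73.6) and intergenic peaks (76.4), and 48 overlapped neither replicate's list. A q of 0.05 was reached by 9 of 55, against 73 of 125 in introns and 77 of 123 between genes. Only 1 lay on X, where 21 intronic and 20 intergenic peaks lay. The median GC content of the window was 56.7%, against 44.8% in introns and 40.3% between genes. None of the 55 held the full DRE, while 9.6% of intronic and 17.1% of intergenic windows did. Replicate 1's own list placed 8 of its 217 peaks away from start sites in coding exons (3.69%) and replicate 2's 25 of 185 (13.5%), while the shares of introns (39.6% and 36.2%) and intergenic sequence (45.2% and 44.3%) lay closer together.

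**Figure D4:**
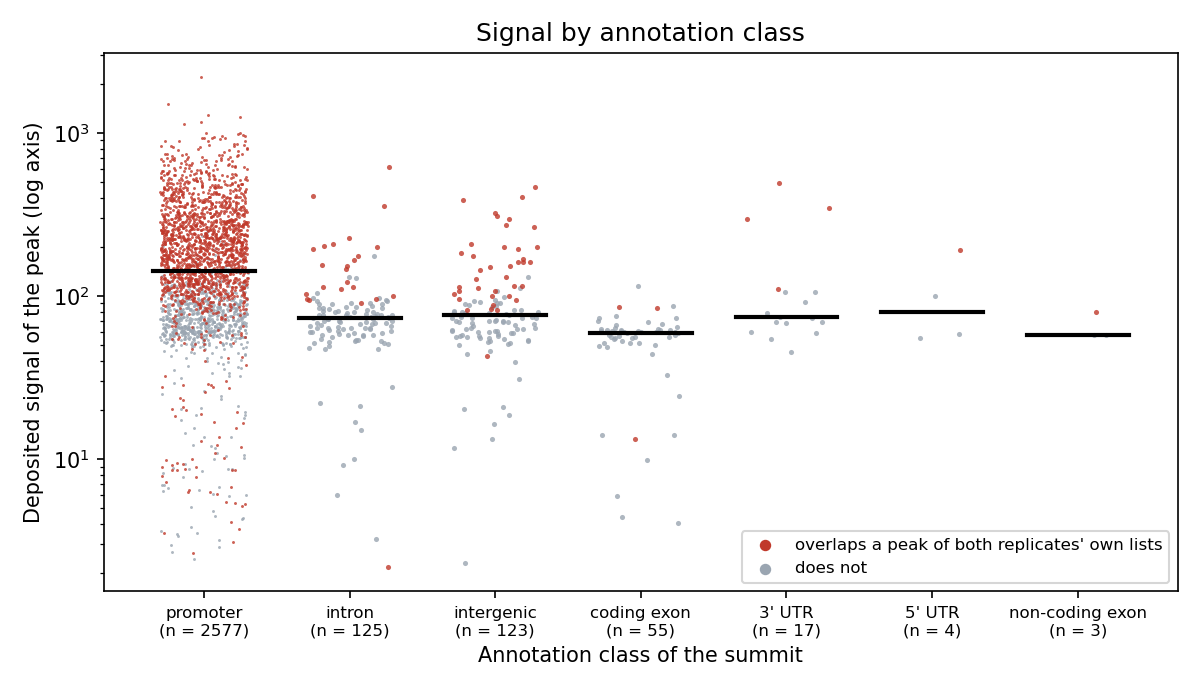
Deposited signal (y, log axis) of each conservative peak by annotation class of its summit; black lines are medians, red points overlap a peak of both replicates' own lists. Promoter peaks have a median of 142, intronic 73.6, intergenic 76.4 and coding exon peaks 59.3.

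Named coding exon peaks show how low the class lies. The highest, nearest to dunk and inside CG42748, had a signal of 115 and inputs of 74.7 and 38.5. Those overlapping both lists were at the insulin receptor gene InR (84.0), near CG30187 (85.6) and at BEAF-32 (13.4), the gene of the boundary protein. The BEAF-32 interval had inputs of 120 and 115, far above its own signal. Most signals this low belong to neighbours of stronger intervals. Of the 27 peaks with a signal of 32.5 or less, 23 were not the highest of several intervals that share 1 pair of input peaks, and those had a median signal of 13.3 (2.19 to 32.5). In the small classes, the highest 5′ UTR peak was at dos (191), an adaptor of receptor tyrosine kinase signalling, and the highest non-coding exon peak at lncRNA:CR32218 near Mi-2 (80.2), a chromatin remodeller gene.

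Distances to the nearest start site had a median of 1634 bp (quartiles 882 and 4669). Of the 327, 102 lay within 1000 bp, 75 from 1000 to 2000, 74 from 2000 to 5000, 43 from 5000 to 10000 and 33 farther. The members nearest to the limit were at PI31 (509 bp, signal 176), RpL27A (511 bp, 111), BEAF-32 (514 bp), 14-3-3zeta (521 bp, 199) and CG12728 (525 bp, 150). Just outside it were Rcd2 (500 bp, 179), hkb (496 bp, 57.9), CG43066 (493 bp, 127), RpL4 (492 bp from a snoRNA start, 61.4) and Hml (485 bp, 89.3). The 3 farthest summits lay near Myo81F (426626 bp, signal 67.9), CG46302 (139047 bp, 61.1) and eIF4B (120844 bp, 77.4), and none of them overlapped a peak of both replicates. The window of the Myo81F summit was wholly soft-masked as repeat. Both Y peaks lay 3527 and 4388 bp from Su(Ste) genes, a repeated family that silences Stellate, with signals of 79.4 and 95.1.

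Of the intronic summits, 69 of 125 (55.2%) lay in the first intron of a transcript, and the introns had a median length of 7017 bp. Where transcripts differed, the lowest intron number was taken, which raises the count of first introns. Of the intergenic summits, 40 of 123 (32.5%) lay within 500 bp of a gene's end. A promoter peak lay within 2000 bp of 67 of the 327 summits (20.5%). No share over all introns or intergenic positions was set beside these counts, so they do not show an excess. The nearest protein-coding genes numbered 292, and 93 of them (31.8%, 26.8 to 37.4) also had a promoter peak, beside 22.6% of all 13968 protein-coding genes. This share was 37.3% for genes nearest to intronic peaks, 45.1% for coding exons and 18.8% for intergenic peaks.

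Some genes were nearest to several peaks. Of 32 such genes, 14 had them from more than 1 pair of input peaks. The gene tna, a trithorax-group gene, had 3 intronic peaks with signals of 91.0, 68.3 and 53.2, and only the highest overlapped both lists. In trh, a bHLH-PAS gene of tracheal development, intronic peaks reached 96.2 and 80.5. Eip75B, an ecdysone-induced nuclear receptor gene, had intronic peaks of 83.8, which holds the word CGTGACACG, and 60.6. In the bithorax complex, 2 intronic peaks of lncRNA:iab8 and MSAmiP (121 and 78.7) and 2 peaks nearest to abd-A (76.0 and 70.6) were seen, and the one at 121 overlapped both lists.

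Gene lists, chosen with earlier results of these data known, are described by counts alone. Of all protein-coding genes 340 (2.43%) hosted or were nearest to one of these peaks. T-box and early patterning transcription factors had 6 of 38 (org-1, zfh1 at 91.2, ems at 82.0, bi at 63.0), and Hox genes 3 of 8 (lab at 96.9, abd-A, Abd-B at 57.5). Neural genes had 6 of 32, with Dscam1, a neuronal cell surface receptor, at 177, so at 90.7, Ten-m at 76.4 and elav at 70.0. Signalling genes had 5 of 30, with InR, the ligand genes dpp (76.4) and Wnt4 (72.1), and hh (69.9). Muscle and heart genes had 1 of 21 (bap, 70.4) and chromatin and insulator genes 2 of 25 (mod(mdg4), 54.6, and BEAF-32). Housekeeping genes had 1 of 19 (14-3-3zeta), housekeeping-type zinc finger genes 1 of 11 (zf30C) and the listed ribosomal proteins 0 of 27. The lists are partial. RpL27A and tna, both nearest to peaks described here, were not on them. Gene length was not adjusted for. Of the members named from the first 4 lists, org-1 and InR overlapped a peak of both replicates and the others did not.

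Motif content separated these windows from promoter windows. Of 26 motifs searched on both strands of the windows that reach 100 bp to each side of a summit, 11 (42.3%) were less frequent away from start sites and 4 (15.4%) more frequent (Fisher's exact test, Benjamini-Hochberg over 26). The full DRE fell from 29.4% of promoter windows to 11.0% (log2 odds ratio -1.73, exact test, adjusted p = 3.83e-13), and its core ATCGAT from 55.2% to 23.9% (-1.97, adjusted p = 2.90e-26). CGATA, which the DRE contains, was in 76.4% and 43.7%. Motif 1 (GGTCACAC) was in 8.69% of promoter windows and in 4 windows here (1.22%), as many as on the left flank. CATCNCTA was in 15.6% and 9.48% (exact test, adjusted p = 0.00739), and in 2.14% and 1.22% on the flanks. Of the other 6 that were less frequent, some had levels here within those of the flanks or below them. These were the core of Ohler motif 6, the E-box CAGCTG, the homeobox site and the run of 8 adenines. The core of the insulator protein ZIPIC (9.17%) was above both flanks. The B box core (GGTTCGA), part of tRNA promoters, was in 1.53%, as on the right flank. In the own lists of both replicates the motif 6 core, the homeobox site and the run of adenines no longer passed (adjusted p of 0.0789 to 0.24, exact tests). CATCNCTA missed in that of replicate 1 (exact test, adjusted p = 0.0745), and the ZIPIC and B box cores in that of replicate 2 (adjusted p of 0.132 and 0.119). The full DRE passed in both, at log2 odds ratios of -0.85 and -1.38.

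Among the 4 more frequent motifs, CACACACA was in 7.95% against 2.72% of promoter windows (log2 odds ratio 1.64, exact test, adjusted p = 5.37e-05), and in 4.59% and 4.89% of the flanks. GAGAG, the GAGA factor site, was in 24.8% against 17.5%, with 24.8% and 22.9% on the flanks and 21.6% of all windows of the arms. The CTCF core was in 11.9% against 6.91% and the Su(Hw) core (GCATAC) in 9.17% against 5.59%, with flanks of 6.42% to 9.48% and of 5.81% to 6.42%. The CTCF and Su(Hw) sites belong to insulator proteins, and short cores such as these are frequent in any sequence: 7.85% and 7.2% of the windows of the arms hold them. In the own list of replicate 2, CACACACA no longer passed (log2 odds ratio 0.64, exact test, adjusted p = 0.519), nor did the Su(Hw) core (0.56, adjusted p = 0.326), which also missed in the optimal list (adjusted p = 0.103). In that of replicate 1, the CTCF core did not pass (0.13, exact test, adjusted p = 0.907). The 11 motifs that did not pass were the E-box CACGTG, the Twist E-box CACATG, a long GAGA repeat, the Zelda site CAGGTAG, the Pho site GCCATNTT, the TATA box TATAAA, the Grainyhead site AACCGGTT, the AP-1 site, the Tinman site CAAGTG, the GATA site AGATAAG and the T-box site AGGTGTGA, which 2 windows held.

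**Figure D5:**
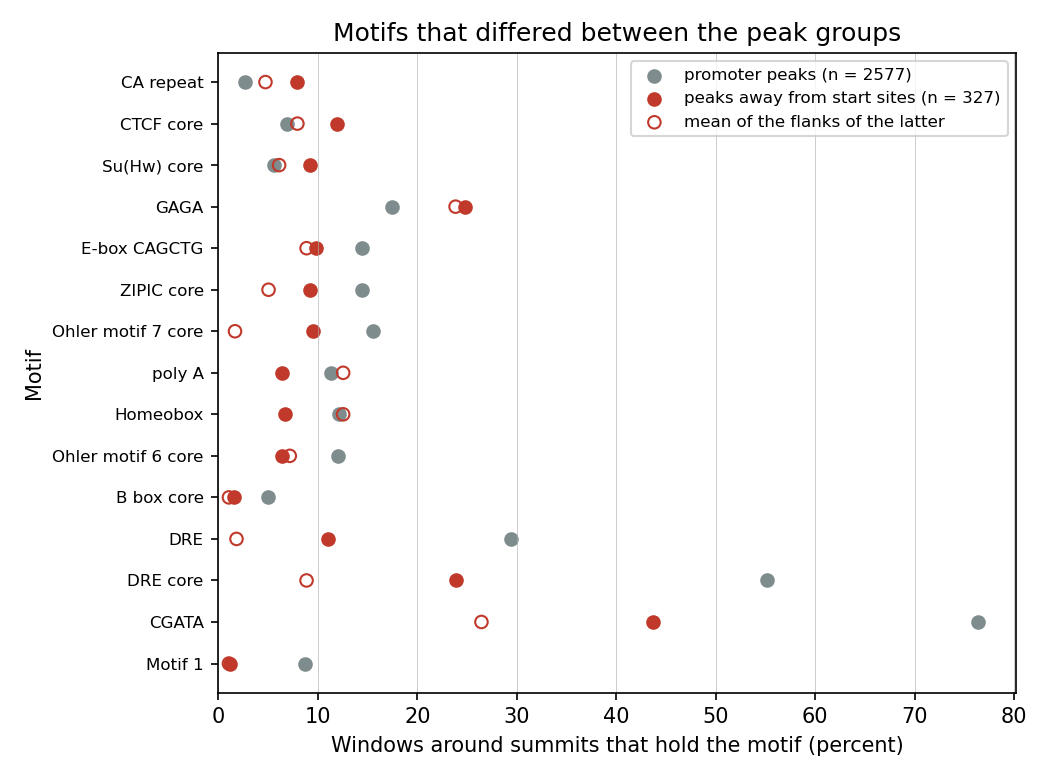
Percent of windows around summits that hold each of the 15 motifs past the test, at promoter peaks (grey), at peaks away from start sites (red) and in the mean of the 2 flanks of the latter (open). The DRE, its core and CATCNCTA lie between flanks and promoters, while GAGAG lies at the level of its flanks.

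Within the peaks away from start sites, DRE content moved with signal. The core was in 36 of the 82 windows with the highest signal (43.9%), in 25 of the next 82, in 10 of the 82 after those and in 7 of the lowest 81. In the upper 50% of the whole list by signal, which holds 43 of these peaks, the log2 odds ratio against promoter windows was 0.11 for the full DRE (exact test, adjusted p = 1), so its direction turned, but -1.39 for the core (adjusted p = 0.0288) and -1.88 for CGATA (adjusted p = 0.0138), which still passed. At signals of 100 or less all of them passed, with -1.62 for the full DRE (exact test, adjusted p = 8.05e-05) and -1.07 for the core, which 18.3% and 32.1% of windows held. By class, the core was in 34.1% of intergenic, 16.8% of intronic, 12.7% of coding exon and 7 of 17 3′ UTR windows.

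Without a motif list, 118 of 2080 6-mers (5.67%) were more frequent away from start sites and 112 (5.38%) less frequent (Fisher's exact test, Benjamini-Hochberg over all 2080). The less frequent were led by TATCGA (25.7% against 61.7%, exact test, adjusted p = 4.19e-32) and CGATAG (19.6% against 51.0%), both parts of the DRE, and A/T-rich words such as AAATAA (24.8% against 46.3%). The more frequent were led by CATGTA (15.3% against 5.2%, log2 odds ratio 1.73, exact test, adjusted p = 8.91e-08), TCTACA (15.9% against 6.75%, adjusted p = 1.18e-05) and ATGTAG (14.1% against 6.01%, adjusted p = 7.70e-05). CATGTA was in 50 windows at the summits and in 26 and 20 on the right and left flanks, and TCTACA in 52 against 20 and 31. GC content was also higher away from start sites, and its relation to these words was not tested. Of 327 windows, 224 (68.5%) exceeded the list's median GC, against 47.0% of promoter windows (odds ratio 2.45, 1.91 to 3.17, exact test, adjusted p = 2.78e-13). In replicate 1's own list the GC difference did not pass (exact test, adjusted p = 0.148).

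A second word, CAAGCAGTG, was also picked after its values were seen, by the same excess over the flanks. It was in 12 windows, in 0 flank windows and in 20 promoter windows. Of its 12 peaks 1 overlapped both lists, and the median signal was 80.2, below the 145 of the peaks with CGTGACACG. Of its 1030 copies on the main arms, 42 lay in a peak (4.08%, 3.03 to 5.47). The 4 examples show copies in coding and intronic peaks, with the word in capitals.
dunk, coding exon, chr2L:22146328-22146356, plus strand: gtgtcagagaCAAGCAGTGgccacgtgca
InR, coding exon, chr3R:21580273-21580301, minus strand: gacagccccgCAAGCAGTGaagaagcgta
Rtnl1, intron, chr2L:5001489-5001517, plus strand: ctgcttgcagCAAGCAGTGcgaactgctt
CG32266, intron, chr3L:3789344-3789372, plus strand: agcactgcttCAAGCAGTGcaatatttac

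Far more sites away from start sites were ranked than passed. In the ranked list of the between-replicate comparison, with each pair of input peaks counted once, 336 of 84160 entries away from start sites (0.399%) were past an irreproducible discovery rate (IDR) of 0.01, against 2548 of 17142 promoter entries (14.9%) and 2.85% of all entries. The odds ratio was 0.023 (0.0204 to 0.0258, Fisher's exact test). The list from which the members were taken is thus the low-IDR end of a ranking in which most entries lay away from start sites. The share of the genome that lies away from start sites was not set beside this. By arm, the 327 peaks were spread as 51 on X, 60 on 2L, 67 on 2R, 71 on 3L, 73 on 3R, 3 on chromosome 4 and 2 on Y. The X share was 15.6% against 20.2% of promoter peaks (odds ratio 0.729, 0.522 to 1.00, exact test, adjusted p = 0.0656), which did not pass. It passed with protein-coding start sites only (log2 odds ratio -0.89, exact test, adjusted p = 8.45e-06), in the optimal list (-0.52, adjusted p = 0.0143), with transposable element start sites counted (-0.52, adjusted p = 0.0319) and at signals of 100 or less (-0.89, adjusted p = 0.00406).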

How the data were processed

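Peak lists were deposited for both replicates together (a conservative and an optimal list, with ranked lists behind them) and for each replicate, in dm6 coordinates per the deposited description files. The authors' columns used are the peak caller's signal, which has no stated scale, the −log10 q-value per peak as deposited, the −log10 of the IDR, and, in the ranked list, the signal of both inputs (entered as a score with no fixed range, as deposited). For the aligner and for the peak caller, names were not given in the sources used here. Conservative entries with the same interval were counted once (highest signal) and limited to 7 arms. Start sites and classes came from Ensembl release 115, with genes of all types but not transposable elements; precedence was coding exon, 3′ UTR, 5′ UTR, non-coding exon, intron, intergenic. Of 3114 ranked entries past an IDR of 0.01, 166 were not in the conservative list and the main figure counts them.

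Peaks away from start sites were compared with promoter peaks by two-sided Fisher's exact tests with Benjamini-Hochberg adjustment within a family (threshold 0.05), tested on simulated data. For log2 odds ratios, 0.5 was added to every count. Motifs were sought within 100 bp of summits, and 6-mers had to occur in at least 10 windows. The planned comparison of widths above the median was turned into widths below it, since the median is the caller's common width of 404 bp. The members, lists and motifs were chosen with earlier results of these data known. The rule for named genes took the protein-coding gene nearest to each of the 15 highest peaks, the highest of each class, the 3 farthest summits, genes nearest to several peaks, up to 4 members per gene list, and the 5 summits on each side of the limit; the genes of printed sequences, of transposable element peaks and of the words were named after their values were seen. Alternatives were other start site windows and gene types, the optimal list, the upper 50% by signal, each replicate's own list, stricter overlap, other motif windows and leaving out X. Computations used SciPy 1.17.1 and pandas 2.3.3 under Python 3.11.15.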

Additional observations from a re-analysis of the deposited data

How the results depend on the processing

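Across alternatives, the lower replicate support, signal and DRE content of peaks away from start sites kept their direction, except where a value is given here; in the upper 50% by signal some calls were lost. The peaks away from start sites made up 14.9% of the list with a limit of 250 bp, 7.75% with 1000 bp, 17% with protein-coding start sites only, 12.8% in the optimal list, 2.96% in the upper 50% by signal, and 8.31% to 8.61% in the replicates' own lists. With protein-coding start sites only, introns held 29.2%, intergenic sequence 31.8% and coding exons 11.8%; in the upper 50% by signal, intergenic sequence held 53.5% and coding exons 0. With 1000 bp coding exons held 12.9%. In the replicates' own lists intergenic sequence held 44.3% to 45.2%, coding exons 3.69% to 13.5% and 3′ UTRs 3.24% to 7.83%.

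As log2 odds ratios against promoter peaks, unequal inputs reached 0.05 with 250 bp, 0.32 with 1000 bp, 0.98 with protein-coding start sites only, 1.67 in the upper 50% by signal, 0.01 with 1 interval per input pair and -0.84 at signals of 100 or less; only 0.98 and -0.84 passed, in opposite directions, where the main comparison did not. The X share reached -0.89 with protein-coding start sites only, -0.52 in the optimal list, -0.52 with transposable element start sites, 0.95 in the upper 50% and -0.89 at signals of 100 or less; the 4 negative values passed, where the main comparison did not. In the upper 50%, where 43 peaks remain, replicate support was -2.02, signal -1.06, width 0.49 and GC content 0.35, and none of these 4 still passed. At signals of 100 or less, signal was -0.37 and width -0.61, which no longer passed. GC content was 0.33, which did not pass, to 0.98 in the replicates' own lists. With 1000 bp, replicate support of coding exons was -1.46 and of 3′ UTRs -0.20. The passing share of ranked entries kept its side of the threshold in all 4 alternatives.

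Motifs less frequent away from start sites numbered 6 with a shorter window, 6 to 7 in the replicates' own lists, 2 in the upper 50% and 4 at signals of 100 or less. The more frequent numbered 7 with a longer window, 0 in the upper 50% and 1 at signals of 100 or less. In the upper 50% the full DRE was at 0.11, the Ohler motif 7 core at 0.78, the CTCF core at -2.49 and the homeobox site at 0.09. At signals of 100 or less the Ohler motif 7 core was at 0.21. None of these values passed. The 6-mers more and less frequent numbered 39 and 40 with a shorter window, 210 and 197 with a longer one, 62 and 70 with 1000 bp, 224 more frequent in the optimal list, 60 to 62 and 36 to 66 in the replicates' own lists, and 0 and 0 in the upper 50%. The upper 50% and the low-signal set leave fewer peaks; other causes were not tested. The comparisons of 1 interval per pair, of transposable element start sites and of low signals were chosen after seeing the data. Unequal inputs could not be compared in the optimal or the replicates' own lists. No paired analysis was possible because there is 1 group. Peak signals without read counts limit all of this: depth per site is unknown.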
